A study of Homo sapiens with 6 samples.

Results

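OGT, the O-linked N-acetylglucosamine (O-GlcNAc) transferase, works in cells through a set of proteins that bind it, and the transcripts of 9 such partners were followed here: HCFC1, TET1, TET2, TET3, SIN3A, ASXL1, ASXL2, TRAK1 and TRAK2. They were the 9 rows whose gene symbol matched the list, of 62703 rows in the deposited table, and each symbol matched 1 row. RNA sequencing was done on total RNA of 786-O, an established line from a human clear cell kidney carcinoma without working VHL protein. There were 3 libraries from control cells (labelled NC, genotype WT) and 3 from cells of the same line with genotype OGT overexpressed. All 6 came from cells kept in RPMI-1640 with fetal bovine serum. The sources used here do not give how OGT was introduced or whether the overexpressing cells were a clone or a pool. Separate cultures are not stated either, so the p-values reflect spread between libraries that may be technical.

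OGT transfers N-acetylglucosamine from UDP-GlcNAc to serine and threonine residues of nuclear, cytosolic and mitochondrial proteins, and OGA removes it. Because a single enzyme has very many substrates, partner proteins are known to bring OGT to particular places: HCF-1 and the TET dioxygenases to promoters, the SIN3A corepressor to silenced genes, the BAP1 deubiquitinase complex with its ASXL subunits to chromatin, and the TRAK adaptors to mitochondria. HCF-1 is also an unusual substrate, since OGT cleaves its precursor protein. These are properties of the proteins. The libraries measured transcripts only.

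Values were deposited as TPM, abundances scaled by transcript length and library. Levels of different genes are compared on that scale, without the GC and length correction used below for changes. Library totals lay between 993935.53 and 996951.62 TPM. The read depth is unknown, so no counting interval is given. The renal carcinoma genes PAX8 (124.78 to 209 TPM), VIM, KRT8, KRT18, PAX2 and EPAS1 were expressed in all libraries. CA9 and NDUFA4L2, which mark many clear cell tumours, stayed under 1 TPM. Summed markers of leukocytes were 0.06 to 12.23 TPM in control and 0 to 0.23 TPM in overexpressing libraries, with the highest sum due to PTPRC in control replicate 1. Endothelial markers summed to 0.76 to 4.77 and 0.16 to 2.68 TPM, and fibroblast markers to 0.05 to 0.48 and 0.22 to 1.14 TPM. CDH5 and COL3A1 were listed at 0 in every library. OGT itself was 22.57 to 23.62 TPM in control and 270.87 to 352.92 TPM in overexpressing libraries. Changes are differences in log2(TPM + 1), overexpressing minus control libraries, with limma's standard error and its p adjusted by Benjamini-Hochberg over 12645 tested genes. A gene was tested if it reached 1 TPM in at least 3 libraries, and it was called at an adjusted p below 0.05.

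Of the 9 partners, 7 were tested and 5 of them rose: HCFC1, SIN3A, ASXL1, TRAK1 and TRAK2. None of the 7 fell in limma, also at an unadjusted p below 0.05. Of all tested genes 39.1% were called higher and 9.70% lower, and the median change of all tested genes was 0.30, against 0.67 for the 7 partners. TET3 and ASXL2 were tested and not called, with 1 control library far above the others in each. TET1 and TET2 stayed below the filter. The changes of all genes followed the GC content and length of their transcripts (Spearman correlations across genes, which are not independent replicates, of -0.472 and 0.386). The partners have long reference transcripts, longer than 81.4% to 98.7% of those of tested genes, so each change is also given after removal of every library's trend on both properties. After that correction HCFC1 was the only partner called, 1 of 7, beside 16.0% of 12348 genes called higher and 12.8% lower. Centring the libraries on their medians left 3 partners called higher, beside 15.3% of all genes higher and 24.2% lower. Quantile normalization left 4, beside 20.2% higher and 17.8% lower.

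**Figure D1:**
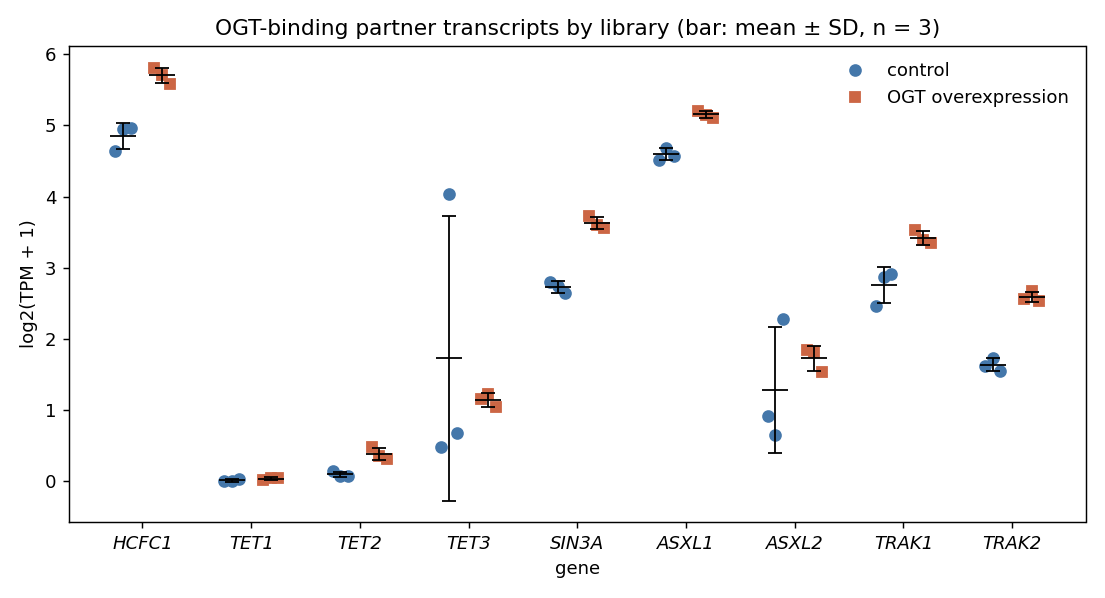
Transcript level of the 9 partners in each library as log2(TPM + 1), with circles for the 3 control and squares for the 3 OGT-overexpressing libraries and bars for mean ± SD (n = 3). HCFC1, TET2, SIN3A, ASXL1, TRAK1 and TRAK2 do not overlap between groups, whereas TET3 and ASXL2 each have 1 high control library, at 15.39 and 3.87 TPM. Of all tested genes, which do not include TET2, 46.2% had every overexpressing library above every control library.

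HCFC1 encodes host cell factor 1, a chromatin adaptor that links sequence-specific factors to histone-modifying enzymes. It was the most abundant of the partners. The gene (ENSG00000172534) lies on chromosome X at 153947553 to 153971807, minus strand, in the GENCODE release 29 annotation of GRCh38. HCFC1 was at 23.85, 30.02 and 30.21 TPM in the control libraries and at 55.02, 51.51 and 47.12 TPM in the overexpressing libraries. Every overexpressing library was above every control library, as for 46.2% of all tested genes. The means were 28.0 ± 3.62 and 51.2 ± 3.96 TPM (SD, n = 3), a ratio of 1.83 (log2 change 0.85 with SE 0.111, adjusted p = 0.00105). HCFC1 differed from the other partners in its base composition: its reference transcript has 61.5% GC, above 88.1% of tested genes. In the GC bin that holds HCFC1, 1 of 10 equal bins of tested genes, the median change was 0.0177 and the middle 50% ran from -0.259 to 0.271. In its length bin the median was 0.617, and the middle 50%, from 0.288 to 0.942, included the change of HCFC1. The change of HCFC1 remained 0.65 after the GC and length correction (SE 0.101, adjusted p = 0.00401). It was called under the other scalings too, at 0.60 after quantile normalization and 0.46 after median centring. The antisense gene HCFC1-AS1, which overlaps it, was listed at 1.91 TPM in control replicate 2 and at 0 in the other 5 libraries.

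**Figure D2:**
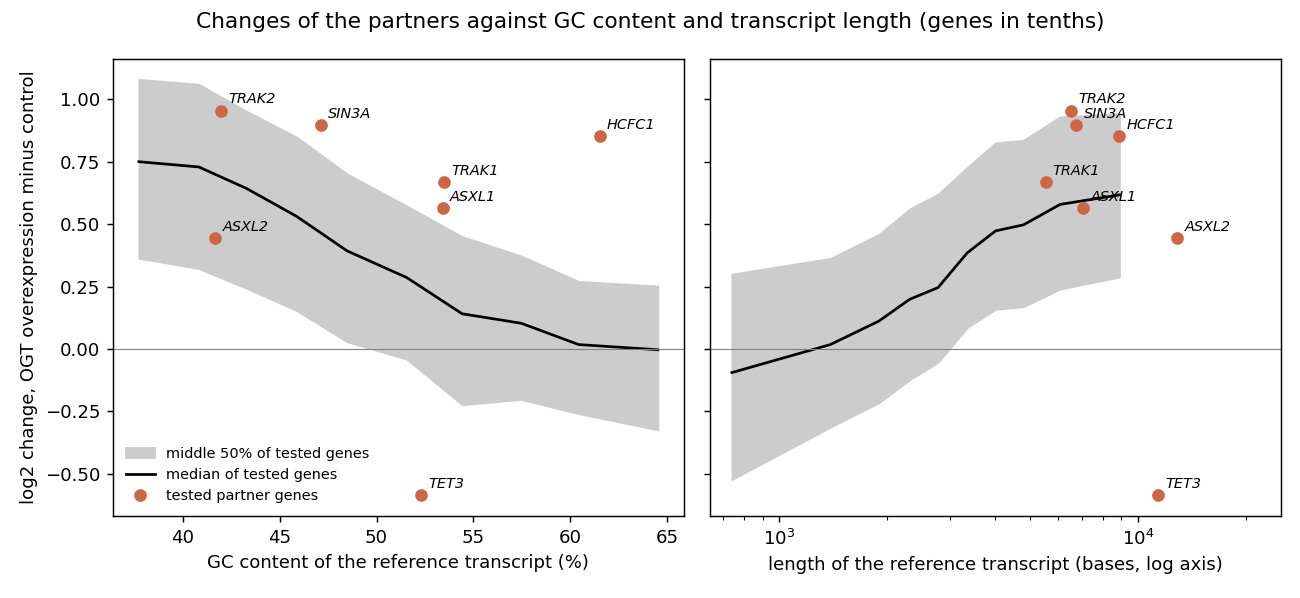
Log2 change of the 7 tested partners (points) against GC content (left) and length on a log axis (right) of each gene's reference transcript, with the median (line) and middle 50% (band) of tested genes in 10 equal bins. HCFC1, at 61.5% GC and a change of 0.85, lies above the band for its GC content, whereas TRAK2, at 42% GC and 0.95, lies inside it. For length the reverse holds: HCFC1 lies inside the band (0.288 to 0.942 in its bin) and TRAK2 just above it (0.24 to 0.93 in its bin).

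SIN3A encodes the scaffold of a corepressor that carries the histone deacetylases HDAC1 and HDAC2 and is known to recruit OGT. Its gene is on chromosome 15, 75369379 to 75455842, minus strand. SIN3A was at 5.98, 5.71 and 5.23 TPM in control and at 12.24, 11.08 and 10.79 TPM in overexpressing libraries. The groups were apart, with overexpressing libraries above as in 46.2% of all tested genes. The lowest overexpressing library was well above the highest control library. Means were 5.64 ± 0.380 and 11.4 ± 0.767 TPM, a ratio of 2.02 (log2 change 0.90 with SE 0.12, adjusted p = 0.00115). After the GC and length correction the change was 0.29 and was not called (adjusted p = 0.102), while it was 0.50 and called after quantile normalization (adjusted p = 0.016). SIN3A has 47.1% GC, and genes of its GC bin had a median change of 0.531.

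ASXL1 and ASXL2 encode alternative cofactors of the deubiquitinase BAP1, which removes ubiquitin from histone H2A and binds OGT through a complex that also holds HCF-1. ASXL1 (chromosome 20, 32358330 to 32439319, plus strand) was at 21.91, 24.69 and 22.85 TPM in control and 35.92, 34.57 and 33.54 TPM in overexpressing libraries. It had the smallest change of the 5 partners that rose, from 23.2 ± 1.41 to 34.7 ± 1.19 TPM, a ratio of 1.498 (adjusted p = 0.00125 for a log2 change of 0.56, SE 0.077). The change was 0.20 after the GC and length correction (adjusted p = 0.0936) and 0.18 after median centring (adjusted p = 0.149), without a call in either. ASXL2 (chromosome 2, 25733753 to 25878516, minus strand) was far lower and did not separate the groups. It was at 0.88, 0.56 and 3.87 TPM in control and 2.57, 2.50 and 1.88 TPM in overexpressing libraries. Control replicate 3 was above all other libraries, and the other 2 controls were below all 3 overexpressing libraries. The log2 change was 0.44 (SE 0.424, adjusted p = 0.421). Without control replicate 3 it was 0.95 and called (adjusted p = 0.0166). The remaining controls were under 1 TPM, so in that fit ASXL2 met the filter only through the overexpressing libraries. A difference was thus partly built in. With all libraries and the correction for GC and length, the change of ASXL2 was -0.27 (adjusted p = 0.669). ASXL1 made up 93.2 ± 6.66% of the summed ASXL1 and ASXL2 TPM in control and 93.8 ± 0.811% in overexpressing libraries. These shares overlapped (exact permutation test, two-sided, p = 1, where 3 against 3 libraries cannot go below 0.1). ASXL3, the third family member, was listed at 0 in every library.

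The TRAK adaptors connect mitochondria to kinesin and dynein motors through the Miro GTPases, and O-GlcNAc on TRAK1 is known to arrest mitochondria when glucose is high. Both TRAK genes rose. TRAK1 (chromosome 3, 42013802 to 42225889, plus strand) was at 4.51, 6.34 and 6.55 TPM in control and at 10.55, 9.44 and 9.18 TPM in overexpressing libraries. The groups did not overlap, with overexpressing libraries above as in 46.2% of all tested genes, and control replicate 1 was the lowest library. Means were 5.80 ± 1.12 and 9.72 ± 0.728 TPM (adjusted p = 0.0131 for a log2 change of 0.67, SE 0.162). TRAK2 (chromosome 2, 201377207 to 201451579, minus strand) was at 2.07, 2.33 and 1.93 TPM in control and 4.92, 5.37 and 4.78 TPM in overexpressing libraries. Its mean went from 2.11 ± 0.203 to 5.02 ± 0.308 TPM, a ratio of 2.38 and the largest of the 5 (adjusted p = 0.0027 for a log2 change of 0.95, SE 0.157). The GC and length correction left 0.32 for TRAK1 (adjusted p = 0.178) and 0.18 for TRAK2 (adjusted p = 0.424), neither of them called. TRAK1 also lost its call after quantile normalization (0.27, adjusted p = 0.264) and median centring (0.28, adjusted p = 0.229), whereas TRAK2 kept its call in both (0.55 and 0.57).

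The TRAK1 share of summed TRAK1 and TRAK2 TPM was 68.5, 73.1 and 77.2% in control and 68.2, 63.7 and 65.8% in overexpressing libraries. The lowest control share and the highest overexpressing share lay close together without overlapping. The mean difference was -7.07 percentage points (exact permutation test, two-sided, p = 0.1, the smallest that 3 against 3 libraries can give). These shares use TPM as deposited, where TRAK2 had the larger log2 change (0.95 against 0.67 for TRAK1). After the GC and length correction TRAK1 had the larger change (0.32 against 0.18 for TRAK2, SE 0.157 for each). TRAK1 has 53.5% and TRAK2 42% GC, and the part of base composition in this shift was not tested. TRAK2 shares 63722 bases with STRADB, a gene on the opposite strand that encodes a pseudokinase partner of LKB1. STRADB was at 6.67, 6.22 and 6.50 TPM in control and at 15.57, 12.66 and 13.68 TPM in overexpressing libraries. Whether the authors' counting used strand is not given in the sources used here, so the 2 values are uncertain where exons overlap.

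The RefSeq promoters of the partners (250 bases before to 50 after each start, GRCh38.p14) were searched on both strands for 5 motifs. They were the ETS motif CCGGAAGT, the CREB motif TGACGTCA, the E-box CACGTG, the GC box GGGCGG, and the motif of ZNF143 and THAP11, which are known to recruit HCF-1. The last has the letters capitalised below for TRAK2, with any base allowed at its 2 positions after ACTACA. TRAK2 held that motif, 180 bases before its start, as 1.75% of 35116 promoters did. TRAK1 held the CREB motif 47 bases before 1 of its 3 starts, and 1.85% of promoters held it. The 2 stretches are shown 5′ to 3′ on each gene's strand with the motif in capitals, chr3:42149177-42149206 for TRAK1 and chr2:201451618-201451647 for TRAK2.
TRAK1: gtgtgtgtctcTGACGTCAccctctaggcg
TRAK2: gggcaggaaACTACAATTCCCagcaggtct
The rarer motifs thus differed between the paralogs. Of the 9 partners 8 had a promoter in the table, HCFC1 being without one. The 8 had 1 to 3 starts each, and a gene was counted if any of its starts held the motif. The shares given are of single promoters, so they are not a rate per gene. The ETS motif, held by 4.14% of promoters, was found for none of the 8. The GC box, held by 45% of promoters, was found for TRAK2, SIN3A, ASXL1, ASXL2, TET2 and TET3. The E-box, held by 7.26%, was found for TET2 and TET3 only among the partners with a promoter in the table. A match describes letters and not binding.

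The TET dioxygenases oxidise 5-methylcytosine, the first step of active DNA demethylation, and TET2 and TET3 are known to carry OGT to chromatin. All 3 were low in these cells. TET1 (chromosome 10, 68560656 to 68694482, plus strand) was listed at 0, 0 and 0.02 TPM in control and at 0.01, 0.03 and 0.03 TPM in overexpressing libraries. TET2 (chromosome 4, 105145875 to 105279816, plus strand) was at 0.10, 0.05 and 0.05 TPM in control and 0.39, 0.27 and 0.24 TPM in overexpressing libraries. The TET2 groups did not overlap, with overexpressing libraries above as in 46.2% of tested genes, but all 6 values were under the filter. In a fit with no filter its log2 change was 0.28 (limma adjusted p = 0.121) and that of TET1 was 0.02 (adjusted p = 0.565).

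TET3 (chromosome 2, 73986404 to 74108176, plus strand) turned on 1 library. It was at 0.39, 15.39 and 0.59 TPM in control and at 1.23, 1.34 and 1.05 TPM in overexpressing libraries. Control replicate 2 was more than 10-fold above every other library, while the other 2 controls were below all 3 overexpressing libraries. The log2 change was -0.59 (SE 0.911, adjusted p = 0.625). Without control replicate 2 it was 0.57 (SE 0.21, adjusted p = 0.0718), so its direction depended on that library and it was called in neither fit. Such values occurred elsewhere in the table: 73 genes of at least 5 TPM in control replicate 2 were at least 10-fold above both other controls, and the like number was 37 to 196 in the other 5 libraries, each set against its own group. Of the controls only that library reached the filter value of 1 TPM for TET3, while all 3 overexpressing libraries did.

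**Figure D3:**
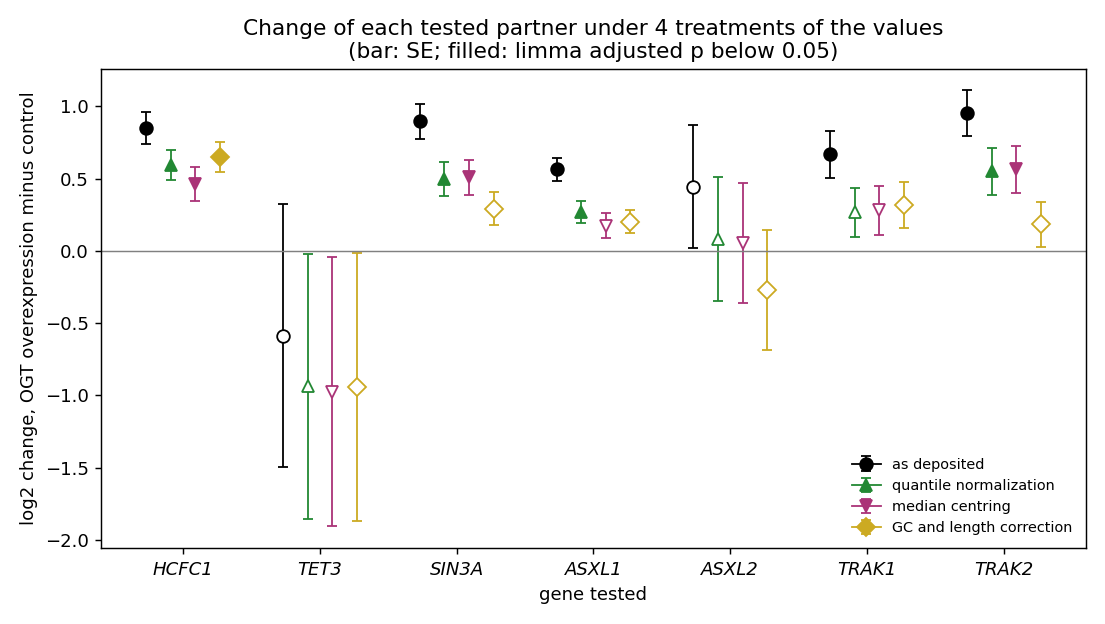
Log2 change with SE of the 7 tested partners as deposited (circles), after quantile normalization (upward triangles), after median centring (downward triangles) and after GC and length correction (diamonds), filled where limma's adjusted p was below 0.05. HCFC1 is filled in all 4, while SIN3A, ASXL1, TRAK1 and TRAK2 are open after the GC and length correction, with changes of 0.29, 0.20, 0.32 and 0.18.

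In the control libraries the order of levels was HCFC1, ASXL1, TRAK1, SIN3A, TRAK2, ASXL2, TET2 and TET1, leaving aside TET3 for its single high library. HCFC1 and ASXL1 overlapped there (23.85 to 30.21 and 21.91 to 24.69 TPM), as did TRAK1 and SIN3A, and ASXL2 overlapped TRAK2. In the overexpressing libraries the order was HCFC1, ASXL1, SIN3A, TRAK1, TRAK2, ASXL2, TET3, TET2 and TET1, and no neighbours in that order overlapped. OGT transcript was 0.752 to 0.969 times the HCFC1 level in control and 5.75 to 6.85 times in overexpressing libraries. For SIN3A these ratios were 3.87 to 4.52 and 25.1 to 31.9. OGT was thus below HCFC1 in all 3 control libraries and above it in all 3 overexpressing libraries, and above SIN3A in all 6. These orders and ratios use TPM as deposited, and OGT has 42.3% GC against 61.5% for HCFC1. Endogenous and introduced OGT transcripts are not distinguished in the deposited value. OGA, the gene of the opposing hydrolase, was at 4.66 to 5.89 TPM in control and 16.03 to 16.54 TPM in overexpressing libraries. Its log2 change was 1.47 as deposited and 0.76 after the GC and length correction, and that of OGT 3.75 and 2.99. All of these were called.

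The pattern over libraries was shared by very many genes. For HCFC1 the genes most like it by Pearson correlation of log2(TPM + 1) over 6 libraries were PARP2, a DNA repair polymerase gene (r = 0.9986, 12.1 ± 1.29 to 21.0 ± 1.09 TPM), and SDAD1 (r = 0.9985). For SIN3A they were STK26 and HNRNPDL, for ASXL1 SEMA7A and WAC, for TRAK1 IGSF8 and NTN4, and for TET2 MTR and SCPEP1, with r from 0.996 to 0.999. The likeness to TET2 rests on low values, since TET2 was under the filter in every library. The 6 libraries fall into 2 separate groups. An r above 0.95 was found for 1953 tested genes with HCFC1, 2247 with SIN3A, 2242 with ASXL1, 760 with TRAK1 and 812 with TET2. These values describe likeness and carry no test.

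The proteins that work with each partner were followed through 7 lists of 79 genes in all. Of 70 tested genes 45 rose and 3 fell, with a median change of 0.46, beside 39.1% higher and 9.70% lower for all genes and a median of 0.30. For 8 of the 70, and 4 of the 45 that rose (GABPA, TDG, MBD4 and MFN1), fewer than 3 controls reached 1 TPM, so they passed the filter only with the help of overexpressing libraries. The counts and medians therefore describe the lists and support nothing further. After the GC and length correction 17 of the 70 were higher and 4 lower (median 0.11, against 0.03 for all genes). The shares of all genes were then 16.0% and 12.8%. After median centring 11 were higher and 10 lower, beside 15.3% and 24.2% of all genes. Quantile normalization gave 16 and 7, beside 20.2% and 17.8%. The same shares of all genes apply to the counts of single lists below. Fits without 1 library, given below for single lists, also called fewer genes over the whole table. Of all tested genes 4941 were higher as deposited. That number was 4694, 4260 and 4529 without control replicates 1, 2 and 3. Without OGT replicates 1, 2 and 3 it was 3684, 3689 and 4261. With no filter 4102 were higher. The genes tested were chosen anew in each of these fits.

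Among HCF-1 cofactors and the SET1/MLL methyltransferase core, which methylates histone H3 lysine residues at promoters, 11 of 18 tested genes rose and 1 fell. After the correction 4 were higher and 0 lower, and after median centring 2 higher and 3 lower. As deposited the number that rose was 7 without control replicate 3 or OGT replicate 2 and 6 without OGT replicate 1. SETD1A, a methyltransferase gene, was at 15.6 ± 0.711 TPM in control and rose to 27.3 ± 2.08 TPM (log2 change 0.77, adjusted p = 6.79e-04) and was called after the correction (0.57). WDR82, which encodes a subunit that ties SETD1A to RNA polymerase, rose from 26.7 ± 0.447 to 41.7 ± 3.26 TPM (0.62) with no call after the correction (0.11, adjusted p = 0.272). HCFC1R1, which encodes a regulator of HCF-1 location, was the only member that fell, from 184 ± 5.77 to 155 ± 8.73 TPM (-0.25, adjusted p = 0.0093), opposite in direction to HCFC1. Its corrected change was 0.04 (adjusted p = 0.601). The HCF-1 paralog HCFC2 was not tested, at 0.26 to 0.60 TPM.

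In the NSL acetyltransferase complex, which contains OGT and HCF-1, 4 of 7 tested genes rose and 1 fell (corrected 2 and 1, median centring 1 and 1). The number that rose was 2 without control replicate 3 or OGT replicate 2 and 1 without OGT replicate 1. PHF20, a gene of a methyl-lysine reader, was at 4.30 ± 0.591 TPM in control and rose to 10.8 ± 1.44 TPM (log2 change 1.16, corrected 0.49, adjusted p = 0.049 for the latter). KANSL3 rose from 9.15 ± 0.438 to 13.3 ± 1.59 TPM (0.49, corrected 0.11 and not called). MCRS1 fell from 119 ± 6.80 to 94.95 ± 2.27 TPM (-0.32, corrected -0.28, both called).

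In the BAP1 complex 4 of 7 tested genes rose and none fell, also at an unadjusted p below 0.05 in limma (corrected 2 and 0, median centring 0 and 0). The number that rose was 2 without control replicate 2 or 3. BAP1, a tumour suppressor gene of clear cell carcinoma, was at 71.22, 77.44 and 73.83 TPM in control and 102.53, 103.18 and 95.12 TPM in overexpressing libraries. BAP1 was called higher (log2 change 0.43, adjusted p = 0.00125), as ASXL1 and 39.1% of all tested genes were. After the correction BAP1 was called (0.27, adjusted p = 0.00744) and ASXL1 was not (0.20, adjusted p = 0.0936). Neither was called after median centring, with changes of 0.04 for BAP1 and 0.18 for ASXL1. FOXK1, which encodes a DNA-binding partner of BAP1, rose from 10.6 ± 0.282 to 15.6 ± 0.930 TPM (0.52, corrected 0.29, called in both).

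Of the SIN3 complex genes 8 of 15 tested rose and 1 fell (corrected 4 and 2, median centring 3 and 3). The number that rose was 5 without control replicate 1 or OGT replicate 1, and 2 fell without control replicate 3 or OGT replicate 2. RBBP7, a histone chaperone gene, went up from 28.8 ± 1.09 to 48.7 ± 2.83 TPM (log2 change 0.74, 0.28 after the correction, both called). HDAC1, the deacetylase gene, rose from 94.4 ± 0.545 to 127 ± 2.21 TPM (0.42 and 0.18, both called). HDAC2, chosen after its values were seen because it had the largest change of this list, was at 4.75, 6.34 and 7.58 TPM in control and 22.06, 23.38 and 18.71 TPM in overexpressing libraries (1.65, corrected 0.89, adjusted p = 0.0112 for the latter). BRMS1 fell from 206 ± 3.81 to 163 ± 1.87 TPM (-0.34, corrected -0.18, called in both).

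Among genes of DNA methylation and demethylation, which act beside the TET enzymes, 6 of 9 tested rose and none fell, also at an unadjusted p below 0.05 in limma (corrected 2 and 0, median centring 2 and 1). The number that rose was 2 without OGT replicate 1 and 3 without OGT replicate 2, and it includes TDG and MBD4, whose controls were all below 1 TPM. DNMT1, the maintenance methyltransferase gene, was at 39.97 ± 4.52 TPM in control and rose to 66.2 ± 1.096 TPM (log2 change 0.72, 0.42 after the correction). UHRF1, which encodes the protein that guides DNMT1 to hemimethylated DNA, rose from 26.7 ± 2.41 to 40.4 ± 2.56 TPM (0.58, corrected 0.30). Both were called after the correction.

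In the list of mitochondrial transport genes 8 of 10 tested rose and 0 fell (1 fell at an unadjusted p below 0.05 in limma, SNPH), with 1 higher and 1 lower after the correction and 2 and 2 after median centring. The number that rose was 5 without control replicate 2, 3 without OGT replicate 1 or 2, and 4 with no filter on low values. DYNC1H1, the dynein heavy chain gene, was at 186 ± 2.25 TPM in control and rose to 273 ± 17.2 TPM (log2 change 0.55, corrected 0.31); it was the gene called higher after the correction. MFN1, a mitofusin gene, rose from 0.787 ± 0.281 to 3.14 ± 0.518 TPM (1.22) with no call after the correction (0.45, adjusted p = 0.152). MFN1 met the filter only through the overexpressing libraries, so a difference was partly built in. SNPH, chosen after its values were seen as the gene called lower after the correction (-0.52, adjusted p = 0.0132), had a log2 change of -0.32 as deposited (adjusted p = 0.0634); syntaphilin anchors mitochondria to microtubules.

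Of 5 other tested genes for proteins known to bind OGT 4 rose and none fell, also at an unadjusted p below 0.05 in limma (corrected 2 and 0, median centring 1 and 0). PROSER1, whose product links OGT with TET2, was at 1.97, 1.93 and 2.46 TPM in control and 6.72, 7.97 and 8.36 TPM in overexpressing libraries. Its log2 change of 1.48 (SE 0.164, adjusted p = 5.48e-04) was above that of each of the 7 tested partners. It was called after the correction (0.84, adjusted p = 0.0107). CARM1, an arginine methyltransferase gene, rose from 82.0 ± 6.35 to 108 ± 7.71 TPM (0.39, corrected 0.29), but its change was near 0 after median centring (0.00126).

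**Figure D4:**
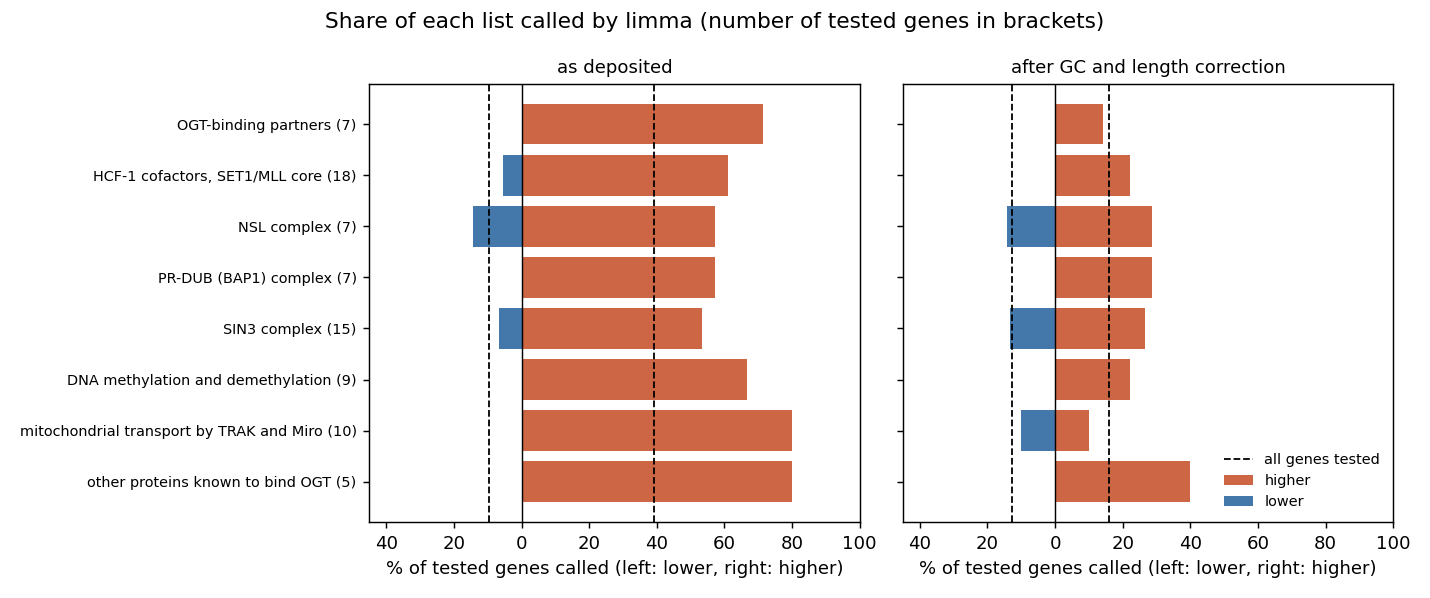
Share of the tested genes of each list called by limma, with bars to the right for higher and to the left for lower in OGT-overexpressing libraries, as deposited (left) and after the GC and length correction (right), and dashed lines for all genes tested. As deposited every list is beyond the 39.1% of all genes. After the correction the partners, with 1 of 7, are near the 16.0% of all genes. The mitochondrial transport genes, with 1 of 10, are below it, and the other lists are above it.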

How the data were processed

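The authors deposited a single table of TPM values, with a column for each sample and human Ensembl identifiers and symbols. No aligner or counting tool is named in the sources used here, and GRCm38 and mm10, both names of a mouse build, appear in the submitters' processing notes. The unit was checked on the values, whose library totals are nearly equal. A gene was tested where 3 or more samples reached 1 TPM. The test was limma 3.58.1 (R 4.3.3), two-sided, on log2(TPM + 1), with a mean-variance trend and robust moderation, and it was also run on simulated data. Coordinates, GC content and length came from GENCODE release 29. The longest transcript stood for each gene, a protein-coding one where possible. Of tested genes 97.7% had one, and it need not be the one expressed. The correction removed natural splines with 4 degrees of freedom per property from each library. Promoters came from RefSeq (GRCh38.p14), matched by symbol.

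Group and replicate came from sample titles. The partners and lists were chosen with earlier results of these data known. Named genes were all partners, OGT, OGA, up to 2 genes per list called in each direction with the smallest adjusted p, and the 2 genes most like each of HCFC1, TET2, SIN3A, ASXL1 and TRAK1. Alternatives were a pseudocount of 0.1, no filter, a mean of at least 5 TPM, quantile normalization, median centring, the GC and length correction, each replicate left out and a replicate block.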

Additional observations from a re-analysis of the deposited data

How the results depend on the processing

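The number of genes called higher, 4941 as deposited, was 2558 after quantile normalization, 1937 after median centring, 1974 after the GC and length correction and 1521 with that correction and a replicate block. It was 4102 with no filter and 3621 at a mean of at least 5 TPM. Genes called lower, 1227 as deposited, were 2245 after quantile normalization and 3066 after median centring. Of the partners 5 were called higher as deposited, 3 after median centring, 1 after the GC and length correction and 1 with the correction and a replicate block; 0 were called lower in any of these fits. The change of ASXL2 turned to -0.27 with the correction, with or without the replicate block, and that of TET3 to 0.57 without control replicate 2, the highest of values that ran down to -1.21 as each library was left out. Apart from those signs, HCFC1, SIN3A, ASXL1, TRAK1 and TRAK2 stayed called with a pseudocount of 0.1, with no filter, without any 1 library and with the replicate block alone. At a mean of at least 5 TPM 4 partners were called, TRAK2 being too low to be tested. Of the mitochondrial transport genes 4 were called higher with no filter, 5 at a mean of at least 5 TPM and 4 with the replicate block, which left 2 in the NSL complex. No filter left 2 in the BAP1 complex and 5 in the SIN3 complex. Same-numbered replicates were not taken as pairs, since their deviations correlated at -0.0194, 0.00264 and 0.0166 and 1 of 6 samples matched its own number best; the replicate block gave 4382 genes higher and 1091 lower. The cause of these shifts was not tested. TPM keeps no read depth, so values of TET1 and TET2 cannot be given a counting limit.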

Other observations

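Of 407 tested genes whose RefSeq promoter holds the ZNF143 and THAP11 motif, through which those factors are known to bring HCF-1 to DNA, 152 were called higher and 61 lower with OGT overexpression. Their median log2 change was 0.232, beside 0.329 for the 9374 tested genes with a promoter in the table, of which 42.2% were called higher and 9.88% lower, against 37.3% and 15% with the motif. These calls are as deposited, without the GC and length correction, and the difference was not tested. TRAK2 was the only partner among them.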
